A study of Mus musculus with 48 samples.

Results

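Gastrocnemius muscle of mice that received corticosterone and an ATGL inhibitor together was compared with muscle of mice that received neither. The comparison took every library whose deposited column name carries the Cort_ATGLi label (n = 14) and every library with the EtOH_CON label (n = 10), 24 of the 48 libraries in the series. All were mixed gastrocnemius, a hindlimb calf muscle, of male C57BL6J mice. For 2 weeks the Cort_ATGLi mice drank water with 100 ug/ml corticosterone and ate chow that contained atglistatin at 571 mg/kg. The EtOH_CON mice drank water with 1% ethanol as vehicle and ate the control diet, so they were vehicle-treated and not strictly untreated. The labels do not record whether the corticosterone water held ethanol. Because water and diet both differed, the share of each in a difference cannot be told apart in this comparison. Cort_CON (corticosterone, control diet, n = 14) and EtOH_ATGLi (vehicle, atglistatin, n = 10) serve as reference levels below. Every EtOH_CON and Cort_ATGLi mouse is labelled nondiabetic, as are all 10 EtOH_ATGLi mice, while 9 of the 14 Cort_CON mice are labelled diabetic. Libraries were treated as separate mice because glucose and insulin are given for each one, although no label says so outright. The p-values of genes set a group difference against the spread between libraries within groups, estimated over all 48 libraries. Those of glucose and insulin come from permuting the values of the groups compared.

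Corticosterone is the main glucocorticoid hormone of rodents. It binds the glucocorticoid receptor, a transcription factor that moves into the nucleus and acts on DNA, and in muscle it is known for raising genes of protein breakdown and fuel switching and for lowering inflammatory genes. Adipose triglyceride lipase (ATGL, gene Pnpla2) takes the first fatty acid off stored triglyceride, and atglistatin blocks that enzyme without touching its gene.

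Expression was read by 3′ end sequencing (QuantSeq, 50 bp forward reads) as counts per gene, with no length scaling. Levels are therefore given as TMM-scaled CPM, which puts libraries of unequal depth on 1 scale, and are compared between samples and not between genes. Totals ran from 11283326 to 20316002 deposited counts across the 24 libraries. Every count in them is even, so the totals may not equal numbers of reads. Along the leading principal component (32.4% of variance), all 10 EtOH_CON libraries lay below all 14 Cort_ATGLi libraries. Library p01 of EtOH_CON and library p41 of Cort_ATGLi stood apart, with mean correlations to their own groups of 0.953 and 0.954 against 0.963 to 0.977 for the other 22. Library p41 held the highest Cort_ATGLi value of 30 of the 90 genes named by rule and the lowest of 19. Library p25 of Cort_ATGLi held the lowest of 21. Along the second component (9.3% of variance), p41 lay at 44.2, and p24 and p25 of Cort_ATGLi lay at -43.5 and -29.6. Skeletal muscle genes defined the tissue in both groups: Acta1, skeletal muscle actin, had a median of 30737 CPM in EtOH_CON and 31747 CPM in Cort_ATGLi.

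Cort_ATGLi mice had lower fed glucose and higher insulin than EtOH_CON mice. Neither measure has a stated unit. Fed glucose ran from 113 to 146 in EtOH_CON with a median of 134, and from 95 to 138 in Cort_ATGLi with a median of 115. The means of 132.4 ± 10.9 (SD, n = 10) and 114.9 ± 14.8 (SD, n = 14) differed by -17.5 (two-sided permutation test, p = 0.005, adjusted p = 0.005 over 4 comparisons). The groups overlapped, with 6 of the 14 Cort_ATGLi mice below every EtOH_CON mouse. Insulin ran from 1.19 to 3.46 in EtOH_CON with a median of 2.39, and from 2.19 to 36.0 in Cort_ATGLi with a median of 13.8. The mean was 15.4 higher in Cort_ATGLi (permutation test, p = 4e-05, adjusted p = 8e-05), and 13 of 14 mice lay above every EtOH_CON mouse. The mouse that did not was p41, at 2.19. In Cort_CON, for reference, mean fed glucose was 243.6 ± 79.9 (SD, n = 14), higher than in Cort_ATGLi (permutation test, p = 2e-05, the smallest that these resamples can give, adjusted p = 8e-05). Mean insulin was 31.7 ± 10.6 in Cort_CON, also higher than in Cort_ATGLi (permutation test, p = 0.0042, adjusted p = 0.005).

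**Figure D1:**
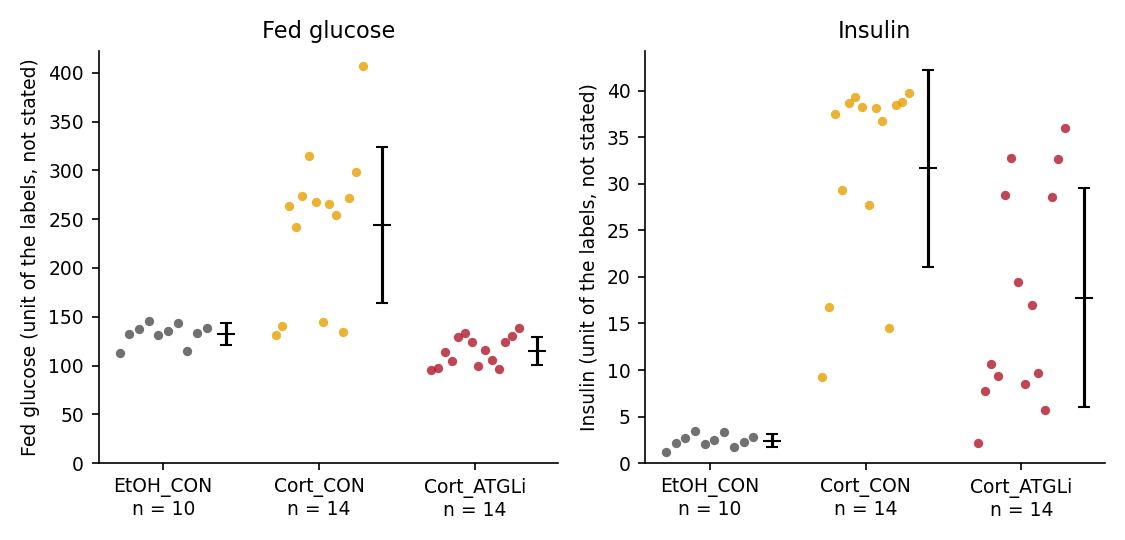
Fed glucose (left) and insulin (right) per mouse in EtOH_CON, Cort_CON and Cort_ATGLi, as the labels give them with no unit, with the mean and SD as bars beside the points. Glucose of the Cort_ATGLi mice stays between 95 and 138, while 13 of their 14 insulin values lie above all EtOH_CON values.

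In muscle, 4983 of 12592 genes tested (39.6%) passed the test between Cort_ATGLi and EtOH_CON: 2459 were higher (19.5%) and 2524 were lower (20.0%) in Cort_ATGLi. The test was edgeR's quasi-likelihood test with Benjamini-Hochberg adjustment over all genes and a threshold of 0.05, and every adjusted p of a gene below is from it. Of these genes, 896 differed at least 2-fold, 318 upward and 578 downward. Groups did not overlap at all for 326 genes with every Cort_ATGLi library above every EtOH_CON library (2.59%) and for 312 with every one below (2.48%). The median log2 fold change over all genes was -0.002. These shares are the background for each list below. Of the called genes that averaged 5 CPM or more over the 24 libraries and have an established symbol, the 10 largest rises were Lcn2 (lipocalin 2, an acute phase protein), Pnmt (the enzyme that makes adrenaline), Klk1b26 (a kallikrein), the metallothioneins Mt1 and Mt2, Gnmt (glycine methylation), Sln (sarcolipin, a regulator of the calcium pump), Fkbp5, Cxcl13 (a B cell chemokine) and Cdkn1a (p21, an inhibitor of the cell cycle). Under the same limits the 10 largest falls were Ighm (the immunoglobulin M heavy chain), the collagens Col1a1 and Col3a1, the MHC class II genes Cd74, H2-Aa, H2-Eb1 and H2-Ab1, the tendon or cartilage genes Cilp2 and Tnmd, and Dupd1, a dual specificity phosphatase of muscle.

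**Figure D2:**
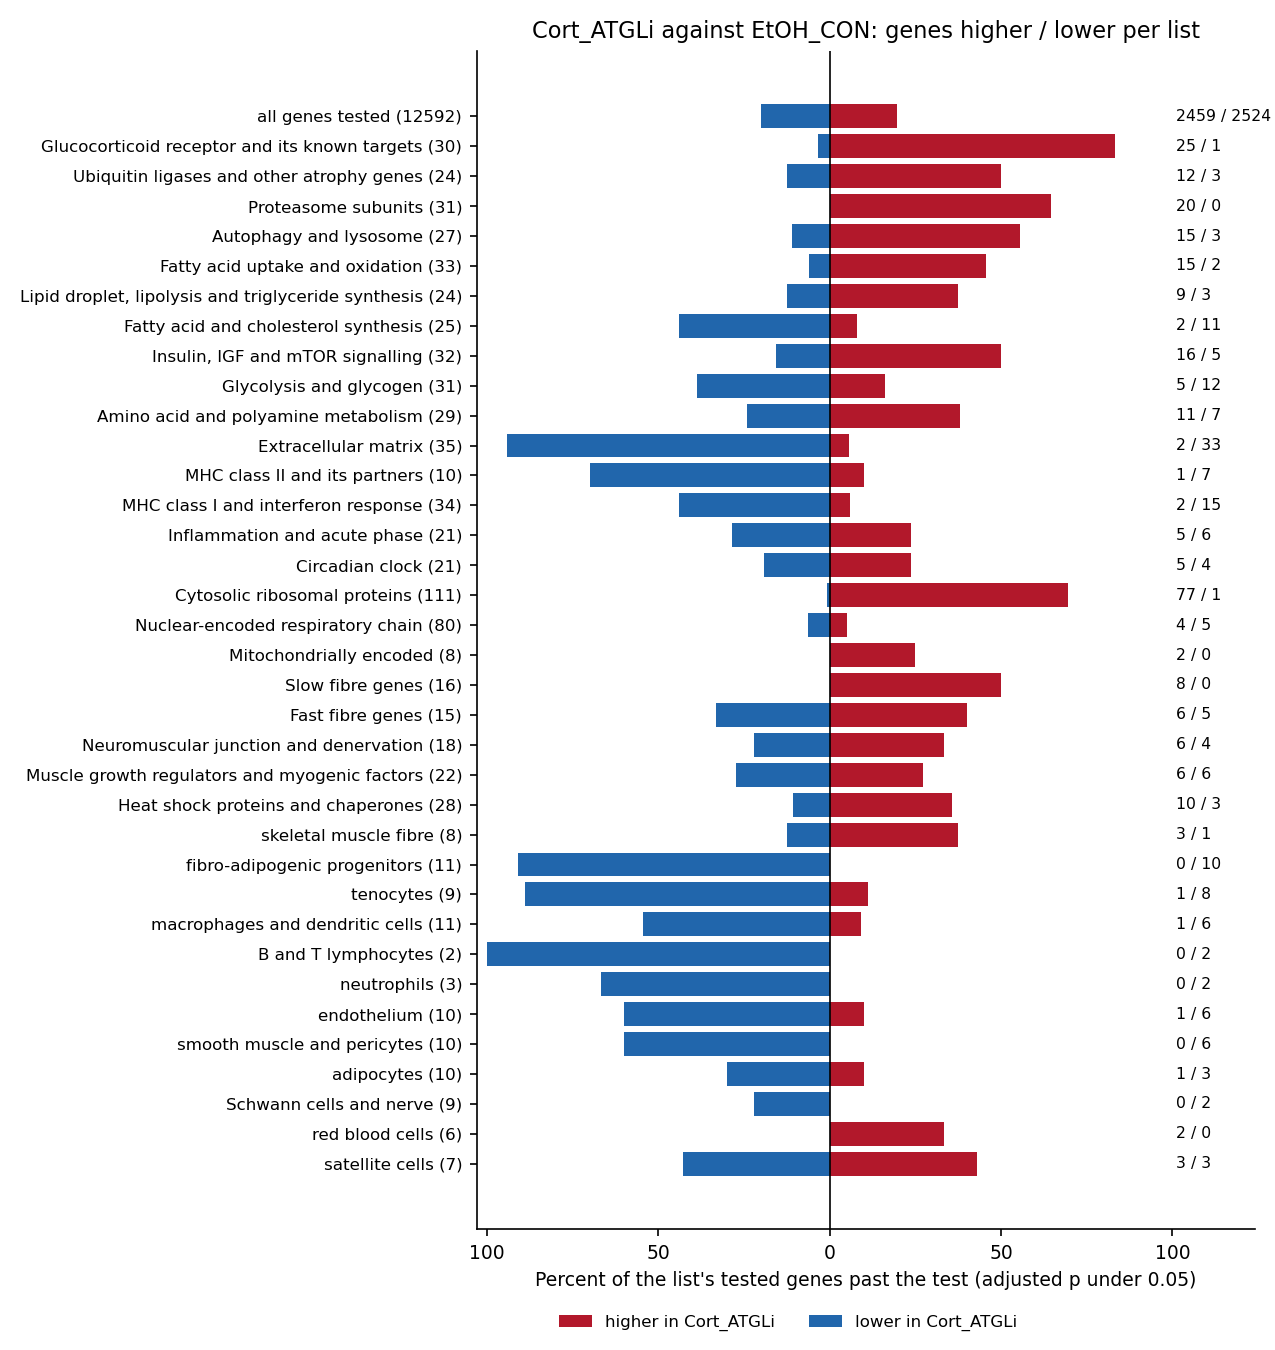
Percent of each list's tested genes that passed the test upward (red, right) or downward (blue, left) in Cort_ATGLi against EtOH_CON, with the counts higher and lower printed at the right and the number tested in brackets. All genes tested stand on top at 2459 higher and 2524 lower. Glucocorticoid targets, proteasome and ribosomal proteins lie to the right, and matrix, tenocyte, progenitor and MHC class II genes to the left.

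Genes known to respond to the glucocorticoid receptor rose together. Of 30 tested, 25 were higher and 1 was lower, with a median log2 fold change of 1.42, and for 13 of the 25 every Cort_ATGLi library lay above every EtOH_CON library. The 1 that fell was the receptor gene itself, Nr3c1, from a median of 52.0 CPM to 42.8 CPM (log2 fold change -0.25, SE 0.08, adjusted p = 0.01).

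Fkbp5, a chaperone of the receptor that dampens its signal, ran from 18.8 to 37.9 CPM in EtOH_CON (median 27.3) and from 184 to 361 CPM in Cort_ATGLi (median 273). The ranges lay far apart, at a log2 difference of 3.25 (SE 0.16, adjusted p = 8.9e-22). Lcn2 ran from 0.57 to 1.47 CPM in EtOH_CON and from 25.1 to 215 CPM in Cort_ATGLi, again with no overlap (log2 fold change 6.10, SE 0.40, adjusted p = 8.6e-17). Tsc22d3 (GILZ), a repressor of inflammatory signalling, moved less: 122 to 253 CPM against 183 to 319.8 CPM, with overlapping groups (log2 fold change 0.62, SE 0.09, adjusted p = 7.5e-08). Per1, a clock gene with a direct receptor site, rose by 1.12 on the log2 scale (SE 0.25, adjusted p = 0.00025), and 10 of 14 Cort_ATGLi libraries exceeded the highest EtOH_CON library at 27.3 CPM.

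Metallothioneins bind zinc and copper. Mt1 ran from 26.7 to 83.6 CPM in EtOH_CON (median 36.3) and from 238 to 3614 CPM in Cort_ATGLi (median 417), and Mt2 from 17.1 to 100.2 CPM and from 163 to 3770.2 CPM. Library p41 set the top of both ranges and of Lcn2, Cxcl13 and Sln as well. Their log2 fold changes of 3.94 for Mt1, 4.21 for Mt2, 3.15 for Cxcl13 and 3.53 for Sln became 3.30, 3.52, 2.55 and 2.07 without p41. All 4 still passed, but without p41 Cxcl13 and Sln lay below Pik3r1 (2.96) and Il6ra (2.66), which are not among the 10 largest rises with it. Sln read 238 CPM in p41 and 5.19 to 18.3 CPM in the other 13, against 0.86 to 4.74 CPM in EtOH_CON.

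A pair of promoters with a palindromic glucocorticoid response element are shown because their genes rose without overlap between the groups: Trim63, described below, and Mt1. Each sequence is the 250 bases before the gene's start in RefSeq (GRCm38.p6), given 5′ to 3′ on the gene's strand, with the element GNACANNNTGTNC in capitals. Both strands were searched and the element is its own reverse complement.
Trim63, chr4:134314870-134315119, plus strand: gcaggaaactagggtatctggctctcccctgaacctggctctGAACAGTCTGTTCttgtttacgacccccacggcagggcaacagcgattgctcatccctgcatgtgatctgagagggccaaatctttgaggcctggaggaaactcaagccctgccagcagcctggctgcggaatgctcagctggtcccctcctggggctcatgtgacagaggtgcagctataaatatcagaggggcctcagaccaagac
Mt1, chr8:94178839-94179088, plus strand: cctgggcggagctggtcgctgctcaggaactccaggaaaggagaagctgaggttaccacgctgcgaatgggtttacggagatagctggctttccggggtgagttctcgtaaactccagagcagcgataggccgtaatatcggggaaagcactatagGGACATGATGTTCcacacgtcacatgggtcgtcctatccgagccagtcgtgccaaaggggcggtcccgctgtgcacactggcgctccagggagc
The element begins 208 bases before the start of Trim63 and 94 bases before that of Mt1. In windows of 250 bases before to 50 after the start, 145 of 27025 genes (0.54%) held it. Among the 30 glucocorticoid targets, 25 had a promoter to search and 2 held it (8.0%), Mt1 and Sgk1. A match is a description of the letters and not of a site in use.

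More genes of muscle protein breakdown rose than fell. Of 24 ubiquitin ligases and other atrophy genes, 12 rose and 3 fell (median log2 fold change 0.19). Trim63 (MuRF1), the ligase that marks thick filament proteins, ran from 233 to 356 CPM in EtOH_CON and from 597 to 2039 CPM in Cort_ATGLi, with no overlap (log2 fold change 1.95, SE 0.24, adjusted p = 8.8e-09). Fbxo32 (atrogin-1), its usual partner in atrophy, ran from 209.6 to 383 CPM and from 559 to 1004 CPM, also apart (log2 fold change 1.29, SE 0.18, adjusted p = 5.3e-08). The polyubiquitin gene Ubb rose by less, from a median of 419.6 CPM to 661 CPM, but with every Cort_ATGLi library above every EtOH_CON library (log2 fold change 0.67, SE 0.07). Mstn (myostatin), which restrains muscle growth, rose by 0.65 on the log2 scale (SE 0.14, adjusted p = 0.00015) and overlapping groups. The 3 that fell were Smad3, Trim55 and Traf6, and Smad3, a carrier of TGF-beta and myostatin signals, had the deepest fall at -1.01 (SE 0.13).

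The proteasome, which digests ubiquitin-tagged proteins, moved in 1 direction: 20 of 31 subunits rose and none fell (median 0.23). Sizes were small except for Psmd8 (log2 fold change 0.85, SE 0.11) and Psmd4 (0.79, SE 0.13), and for Psmd8 the ranges were 361 to 512 CPM and 573 to 1001 CPM. Of 27 autophagy and lysosome genes, 15 rose and 3 fell. Map1lc3a, an LC3 protein of the autophagosome membrane, rose from a median of 182 CPM to 353 CPM (log2 fold change 1.05, SE 0.12, adjusted p = 2.3e-10), and Tfeb, the transcription factor of lysosomal genes, from 30.7 to 54.0 CPM (0.83, SE 0.09). Ulk1, the kinase that starts autophagy, went the other way, at -0.32 (SE 0.10, adjusted p = 0.0066). The E-box CACGTG, the core of the site that Tfeb and its relatives bind, was in the promoter windows of 9 of the 21 autophagy and lysosome genes with a promoter (42.86%), against 8.09% of all genes, as a description with no test. Other lists were also above that share, among them the clock genes (29.41%) and the glucocorticoid targets (7 of 25).

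Genes of translation rose as well. Of 83 protein-coding genes of cytosolic ribosomal proteins, 73 rose and none fell (median 0.38), while among 28 pseudogenes of the same names 4 rose and 1 fell. Rps27 ran from 174 to 271 CPM in EtOH_CON and from 319 to 502 CPM in Cort_ATGLi, with no overlap (log2 fold change 0.74, SE 0.09, adjusted p = 7e-10). Ribosomal proteins have many near-identical copies, so the split of reads between a gene and its pseudogenes is uncertain. Eif4ebp1 (4E-BP1), which holds back the start of translation, rose from a median of 42.9 CPM to 118 CPM (1.69, SE 0.22).

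**Figure D3:**
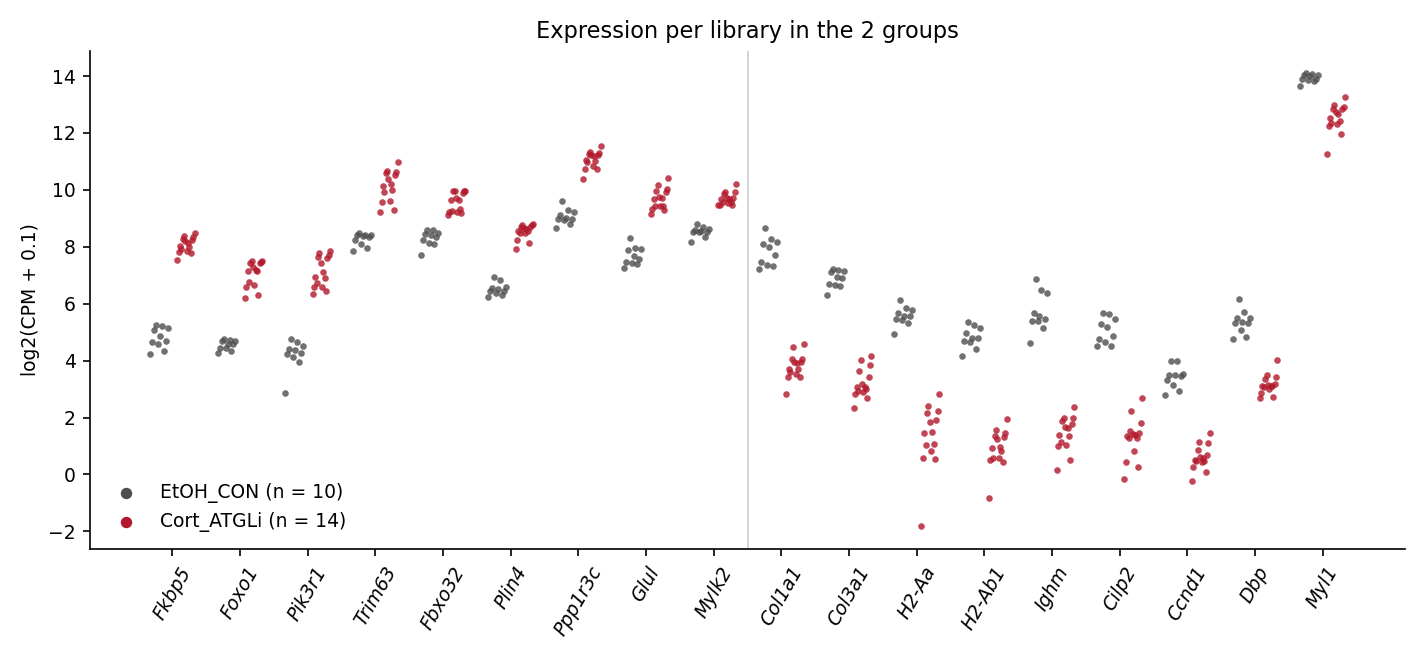
Expression of 18 genes in each library, as log2(CPM + 0.1), for EtOH_CON (grey) and Cort_ATGLi (red). The 9 genes at the left lie higher in Cort_ATGLi and the 9 at the right lower, and for each of them the points of the groups do not overlap. The 18 are a selection and not typical: over all genes tested, 2.59% lay wholly above and 2.48% wholly below. Named genes whose groups overlapped, such as Tsc22d3 and Mstn, are not shown.

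Insulin signalling genes moved in both directions. Of 32 tested, 16 rose and 5 fell. Irs1, which docks the active insulin and IGF1 receptors, ran from 62.7 to 105 CPM in EtOH_CON and from 20.4 to 33 CPM in Cort_ATGLi (log2 fold change -1.64, SE 0.14, adjusted p = 4.2e-14). Igf1, the growth factor itself, fell by 1.12 on the log2 scale (SE 0.17, adjusted p = 4.6e-07) and Igfbp5, which binds it, by 2.12 (SE 0.25). All 3 were lower in every Cort_ATGLi library than in any EtOH_CON library. Pik3r1, the regulatory subunit of PI3 kinase, went from a range of 7.21 to 27.1 CPM to a range of 81.6 to 231 CPM (2.93, SE 0.22, adjusted p = 3.3e-15). Foxo1, a transcription factor that insulin keeps out of the nucleus and that drives atrophy genes, ran from 19.1 to 27.1 CPM and from 73.8 to 181 CPM (2.55, SE 0.17, adjusted p = 3.3e-17). Ddit4 (REDD1) and Sesn1, both brakes on mTOR, rose with log2 fold changes of 2.21 and 1.75. The receptor gene Insr rose by 0.45 (SE 0.10), and the glucose transporter gene Slc2a4 (GLUT4), at medians of 328 and 321 CPM, did not pass (-0.03, SE 0.07, adjusted p = 0.78).

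Several glycolytic genes were lower and several glycogen-building genes higher. Of 31 glycolysis and glycogen genes, 12 fell and 5 rose (median -0.17). The 12 that fell included Pfkfb3, which makes the activator of phosphofructokinase (-1.18, SE 0.22), Pgam2, the muscle phosphoglycerate mutase (-0.86, SE 0.14), and Pfkm, Eno3, Pkm and Pygm. Ppp1r3c (PTG), which brings a phosphatase to glycogen, ran from 406 to 771 CPM in EtOH_CON and from 1320.5 to 2952 CPM in Cort_ATGLi (log2 fold change 2.0, SE 0.13, adjusted p = 3.9e-19). Gbe1, the branching enzyme, rose from a median of 40 CPM to 73.6 CPM (0.94, SE 0.09), again with no overlap. Aldoa, Gyg and Ppp1r3d were the other risers of the list.

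More genes of fatty acid uptake and oxidation rose than fell. Of 33 genes of fatty acid uptake and oxidation, 15 rose and 2 fell, Acads and Hadh (median 0.25). Pdk4 encodes a kinase that inhibits pyruvate dehydrogenase. Its level ran from 7.33 to 67.5 CPM in EtOH_CON and from 33.6 to 254 CPM in Cort_ATGLi (log2 fold change 2.29, SE 0.41, adjusted p = 1.2e-05), and 12 of 14 libraries exceeded all EtOH_CON libraries. Cd36, a fatty acid carrier, ran from 57.9 to 86.4 CPM and from 104 to 168 CPM, with no overlap (0.80, SE 0.09). Of the 80 nuclear genes of the respiratory chain, 4 rose and 5 fell (11.2% past the test), fewer than the 39.6% over all genes.

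The lipid droplet list is the one that holds the drug's target. Pnpla2 itself rose: 123 to 185 CPM in EtOH_CON against 228 to 666 CPM in Cort_ATGLi, with no overlap (log2 fold change 1.09, SE 0.16, adjusted p = 1.2e-07). The gene lies on chr7:141455198-141460743 (GRCm38, plus strand). Since the inhibitor acts on the enzyme and not on its gene, the level of Pnpla2 does not check the labels. G0s2, a protein inhibitor of ATGL, rose from a median of 13 CPM to 56.3 CPM (2.08, SE 0.23), and Pnpla3, a related lipase, from 2.28 to 12.2 CPM (2.31, SE 0.24). Abhd5 (CGI-58), the activator of ATGL, did not pass, at -0.15. Among the droplet coat genes, Plin4 ran from 75.5 to 124 CPM and from 244 to 442 CPM (2.01, SE 0.11, adjusted p = 3.3e-21), Plin5 rose by 1.79 (SE 0.24) and Plin3 by 0.89. Plin2, the coat protein found in most cells, was lower, with a median of 15.4 CPM in EtOH_CON and 9.05 CPM in Cort_ATGLi (-0.56, SE 0.14, adjusted p = 0.0011); 12 libraries lay below all EtOH_CON libraries and 1 above. In all, 9 of the 24 rose and 3 fell.

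Of 25 genes of fatty acid and cholesterol synthesis, 11 fell and 2 rose (median -0.42). The falls were mostly cholesterol genes: Sqle, the squalene epoxidase, fell by 1.84 (SE 0.41) at levels of at most 3.15 CPM, and Insig1, Dhcr7, Srebf2, Cyp51 and Hmgcs1 fell by 0.99 to 0.42 on the log2 scale. Among the fatty acid genes Elovl5, an elongase, also fell, by 0.67 (SE 0.12, adjusted p = 6.2e-06). Fasn (-0.31, adjusted p = 0.45), Scd1 (-0.80, adjusted p = 0.088), Acly (-0.02) and Thrsp (-0.06) did not pass. Acacb, whose product makes the malonyl-CoA that holds back fat oxidation, and Lss were the 2 that rose.

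**Figure D4:**
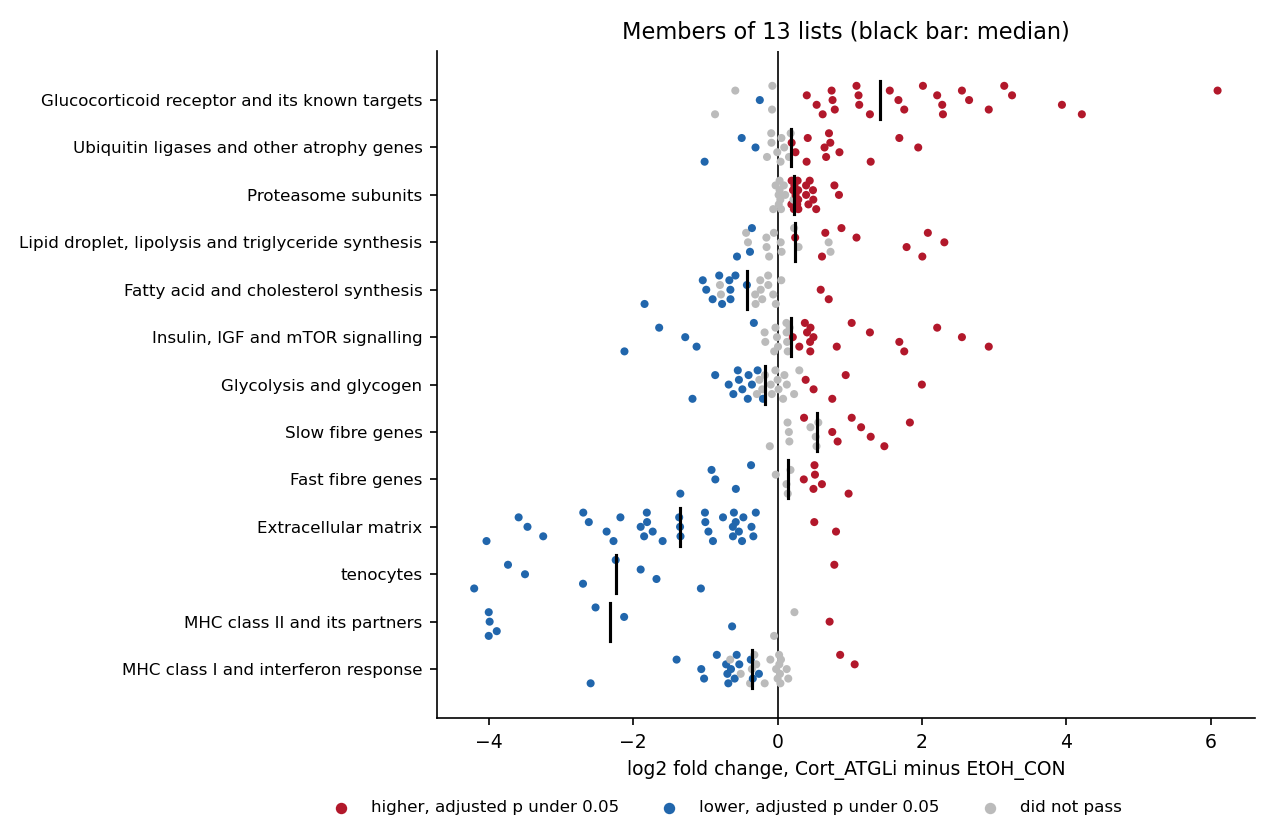
Log2 fold change of every tested member of 13 lists, Cort_ATGLi minus EtOH_CON, coloured by whether the gene passed the test, with the list's median as a black bar. Matrix members lie below 0 except Lama2 and Lox, and the 4 lowest MHC class II members lie near -4.

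Nearly the whole extracellular matrix list fell. All 35 genes tested passed: 33 were lower and 2 were higher, with a median log2 fold change of -1.34, and 17 of the 33 had every Cort_ATGLi library below every EtOH_CON library. Col1a1, a chain of type I collagen, ran from 148 to 403 CPM in EtOH_CON (median 232) and from 7.06 to 24.2 CPM in Cort_ATGLi (median 14). The ranges were far apart, and the log2 difference was -4.03 (SE 0.24, adjusted p = 5.1e-18). Its partner chain Col1a2 ran from 206 to 398 CPM and from 16.4 to 37.4 CPM (-3.46, SE 0.19, adjusted p = 3.8e-19), and Col3a1 from 79.1 to 150.5 CPM and from 4.98 to 18 CPM (-3.59, SE 0.22). Basement membrane genes fell less, with -0.54 for Col4a1, -0.36 for Lamc1 and -0.62 for Lama4. The 2 that rose were Lama2, the laminin chain of the muscle fibre's own sheath (0.51, SE 0.12), and Lox, which cross-links collagen (0.81, SE 0.22, adjusted p = 0.0024).

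Markers of the cells that make matrix fell with it. Several code for matrix proteins themselves, among them Dcn, Lum, Fmod and Thbs4, so they are not a readout apart from the matrix result. Of 11 markers of fibro-adipogenic progenitors, the resident fibroblast-like cells, 10 fell, and their summed level ran from 1447.9 to 2285 CPM in EtOH_CON and from 1017 to 1319 CPM in Cort_ATGLi. Dcn and Gsn were the largest parts of the sum, at means of 815 and 714 CPM in EtOH_CON. Of 9 tenocyte markers, 8 fell and 1, the transcription factor gene Scx, rose, and the sum ran from 282 to 566 CPM and from 88.6 to 164 CPM. Thbs4 and Fmod were the largest parts of that sum, at means of 196 and 112 CPM in EtOH_CON. Scx overlaps Bop1 on the other strand, so the reads of Scx and Bop1 cannot be told apart. Tnmd (tenomodulin) ran from 7.89 to 18.5 CPM and from 0.092 to 2.98 CPM (-3.50, SE 0.26), and Cilp2 from 22.6 to 50.8 CPM and from 0.79 to 6.31 CPM (-3.73, SE 0.25). Pdgfra, the defining progenitor gene, fell by 0.49 (SE 0.15), less than the collagens. In whole muscle, fewer cells of a type and less RNA per cell cannot be told apart, and the part of cell numbers in the matrix result was not tested.

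MHC class II genes, which present antigen on dendritic cells, macrophages and B cells, showed some of the largest falls. Of the 14 on the list 10 were tested, and 7 of these were lower and 1 higher (median -2.32). H2-Aa ran from 30.1 to 69.7 CPM in EtOH_CON (median 47.4) and from 0.18 to 7.03 CPM in Cort_ATGLi (median 2.66), with no overlap (-4.00, SE 0.27, adjusted p = 1.5e-16). H2-Ab1 ran from 17.6 to 40.7 CPM and from 0.46 to 3.75 CPM (-3.89, SE 0.23), H2-Eb1 from 17.7 to 35.9 CPM and from 0.18 to 2.90 CPM (-3.99, SE 0.25). Cd74, the invariant chain that guides class II through the cell, moved by the same amount (-4.00, SE 0.29). The peptide loading genes H2-DMa and H2-DMb1 fell by 2.13 and 2.52. Ctss, the protease that trims the invariant chain, fell by 0.63. Among the transcription factors of the group, Rfx5 rose (0.72, SE 0.17) while Rfxap and Rfxank did not pass, and Ciita, the master regulator, was not analysed here.

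A pair of class II promoters are printed because their genes fell together. They carry the Y-box core ATTGG (or CCAAT on the other strand), the piece of the class II promoter bound by NF-Y, in capitals. The sequences are the 250 bases before the RefSeq start, GRCm38.p6, 5′ to 3′ on the gene's strand.
H2-Aa, chr17:34287824-34288073, minus strand: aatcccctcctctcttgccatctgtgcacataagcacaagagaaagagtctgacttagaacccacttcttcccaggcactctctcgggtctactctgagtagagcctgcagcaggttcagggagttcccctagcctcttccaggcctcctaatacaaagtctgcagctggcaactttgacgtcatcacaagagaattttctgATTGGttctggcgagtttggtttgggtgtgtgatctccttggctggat
H2-Eb1, chr17:34305617-34305866, plus strand: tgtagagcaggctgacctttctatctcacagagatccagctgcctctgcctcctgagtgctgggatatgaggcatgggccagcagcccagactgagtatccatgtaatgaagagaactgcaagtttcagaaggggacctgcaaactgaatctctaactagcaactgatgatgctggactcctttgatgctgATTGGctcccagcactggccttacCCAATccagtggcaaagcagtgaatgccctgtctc
The core begins 48 bases before the start of H2-Aa and 59 and 35 bases before that of H2-Eb1. With both strands searched, 6 of the 7 list members with a promoter held it in the 300 base window (85.71%), against 41.06% of all genes. The share was not particular to class II: 15 of 17 genes of fatty acid and cholesterol synthesis (88.24%) and 13 of 17 clock genes (76.47%) held the core too.

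Other immune lists held changes in both directions. Of 34 genes of MHC class I and the interferon response, 15 fell and 2 rose, Irf7 and Ifit1 (median -0.35). B2m, the light chain of class I, fell from a median of 215 CPM to 127 CPM (-0.64, SE 0.09, adjusted p = 2e-08), and H2-D1 fell by 0.59 (SE 0.09). Gbp4, an interferon-induced GTPase, had the deepest fall at -2.59 with levels of at most 8.29 CPM. The acute phase and inflammation list was mixed, with 5 higher and 6 lower of 21: Hp (haptoglobin), Serpina3n, Il6ra, Cxcl13 and Lcn2 rose, and C3, Cxcl12, Cxcl14, Il15, Relb and Tnfrsf1a fell. Il6ra, the receptor of interleukin 6, ran from 4.14 to 11.6 CPM and from 18.3 to 63.2 CPM (2.65, SE 0.20, adjusted p = 8.1e-15).

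Markers of the immune cells gave these values beside the class II result. Of 11 macrophage and dendritic cell markers tested, 6 fell and 1, Cd163, rose. Their sum ran from 103 to 189 CPM in EtOH_CON and from 77.6 to 283 CPM in Cort_ATGLi, where p41 set the top. Without p41 and p01, 10 of the 11 fell and none rose. Csf1r, Mrc1 and Ptprc fell by 0.59, 0.71 and 1.97, and C1qa (adjusted p = 0.14) did not pass. The defining lymphocyte markers Cd79a and Cd3e were not analysed here. The 2 immunoglobulin genes that were tested both fell: Ighm ran from 24.2 to 117 CPM and from 1.01 to 5.07 CPM, with no overlap (-4.36, SE 0.44, adjusted p = 5.9e-11), and Igkc by -2.62 with overlap. The part of cell numbers in the class II result was not tested.

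Vessel, nerve and blood markers changed by smaller amounts. Of 10 endothelial markers 6 fell and 1, Flt1, rose, but their sum overlapped, at 197 to 247 CPM and 152 to 275 CPM, and Pecam1 did not pass (0.04). Smooth muscle and pericyte markers fell in 6 of 10, Acta2 among them (-0.46, SE 0.12). Among 10 adipocyte markers 3 fell and 1, Lep, rose (1.54, SE 0.29). The falls were Car3, which muscle fibres also express (-1.28, SE 0.27), Cfd (-1.05, SE 0.33) and Fabp4 (-0.39, SE 0.14). Adipoq did not pass (0.25, adjusted p = 0.49). Of 9 Schwann cell markers 2 fell, Pmp22 among them (-0.59). The haemoglobin genes Hba-a2 and Hbb-bs rose by 0.33 and 0.46, but Hba-a2 did not pass in 17 of the alternatives and Hbb-bs did not pass without p24 (adjusted p = 0.058); both have near-identical copies.

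Fibre genes changed without a simple switch of type. Of 16 slow fibre genes 8 rose and none fell (median 0.55), led by Ankrd2, a stretch-responsive protein (1.83, SE 0.21), and Myoz2, a calcineurin-binding Z-disc protein (1.48, SE 0.15). The slow myosin gene Myh7 did not pass (0.54, adjusted p = 0.11). Of 15 fast fibre genes 6 rose and 5 fell. Myl1, the fast alkali light chain, ran from 12710.5 to 17467 CPM in EtOH_CON and from 2462 to 9831 CPM in Cort_ATGLi (-1.35, SE 0.14, adjusted p = 2.5e-11). Actn3, the alpha-actinin of fast fibres, moved the other way, from 2014 to 3123 CPM up to 4264 to 6713 CPM (0.98, SE 0.08), and the fast myosin gene Myh4 did not pass (-0.02). Casq1, the calcium store protein of fast fibres, fell by 0.91 (SE 0.10).

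Growth and repair genes were split. Among cell cycle genes, Cdkn1a ran from 12.6 to 30 CPM and from 82.3 to 344 CPM (3.14, SE 0.31), and Ccnd1 (cyclin D1) from 6.81 to 16 CPM and from 0.75 to 2.67 CPM (-2.87, SE 0.18, adjusted p = 3.6e-19). Myod1 rose by 0.58 (SE 0.17) and Myog did not pass. Fstl1, a follistatin-like secreted protein, fell by 1.53 (SE 0.11). Of 7 satellite cell markers tested, 3 rose and 3 fell. Pax7, the defining gene of muscle stem cells, fell by 0.82 (SE 0.26), at levels of at most 3.46 CPM and with overlapping groups. Cdh15 (M-cadherin) rose by 1.13 (SE 0.13). The sum of the markers ran from 66.9 to 86.3 CPM in EtOH_CON and from 72.9 to 158 CPM in Cort_ATGLi, where p41 set the top. At the neuromuscular junction the receptor subunit gene Chrnb1 and the kinase gene Musk rose by 0.86 and 0.97, and the adult subunit gene Chrne fell by 0.50.

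Polyamine genes moved in both directions. Amd1, which makes the decarboxylated S-adenosylmethionine used to build spermidine and spermine, ran from 315 to 809 CPM and from 38.9 to 273 CPM (-1.90, SE 0.21), although its near-identical copy Amd2 (-1.69) makes the split of reads uncertain. Smox (spermine oxidase) ran from 255 to 433 CPM and from 25.6 to 139 CPM (-1.91, SE 0.24, adjusted p = 1.1e-08). Odc1, which makes putrescine, rose by 0.48 (SE 0.15), and Sms, the spermine synthase, by 0.21 (SE 0.08, adjusted p = 0.026). On the same list Glul (glutamine synthetase) ran from 154 to 316 CPM and from 574 to 1362 CPM (2.01, SE 0.17, adjusted p = 3.5e-14). Gnmt rose from a median of 1.09 CPM to 17.5 CPM (4.09, SE 0.29) and Pnmt from 0.73 to 21.6 CPM (4.75, SE 0.38). In all 11 of 29 rose and 7 fell.

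Chaperones rose in 10 of 28 and fell in 3 (46.4% past the test, against 39.6% over all genes). The muscle small heat shock genes Hspb7 (1.76, SE 0.28) and Cryab (1.00, SE 0.15) had every Cort_ATGLi library above every EtOH_CON library.

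Clock genes passed the test at a share near that of all genes. Of 21 tested, 5 rose and 4 fell (42.9% past the test, against 39.6% over all genes). Dbp, an output gene driven by the core clock, ran from 27 to 71.5 CPM in EtOH_CON and from 6.37 to 16.1 CPM in Cort_ATGLi (-2.21, SE 0.17, adjusted p = 1e-14). Nfil3, which competes with Dbp for the same sites, ran from 8.64 to 16.7 CPM and from 22.8 to 56.4 CPM (1.70, SE 0.15). The core genes Arntl, Clock and Cry1 did not pass. The labels give no time of day for collection, so any difference in it between the groups cannot be told apart from the treatments.

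To place these levels, Cort_ATGLi was set beside Cort_CON, which shares the corticosterone water and not the diet. The comparison shares the Cort_ATGLi libraries with the one above, so the values are given side by side. Of 12592 genes, 201 (1.60%) passed, 84 higher and 117 lower in Cort_ATGLi, 23 of them at least 2-fold. The count depended on the fit: it was 78 with only these groups in the model, 125 without p23 of Cort_ATGLi and 354 without p45 of Cort_CON.

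Scd1, the desaturase that makes monounsaturated fat, ran from 7.04 to 268 CPM in Cort_CON with a median of 131, against 11.2 to 104 CPM with a median of 28.8 in Cort_ATGLi (log2 fold change -1.94, SE 0.36, adjusted p = 0.0013). Its EtOH_CON median was 51.4 CPM, and that difference did not pass. Fasn, the fatty acid synthase, had medians of 51.3 CPM in Cort_CON, 21.6 CPM in Cort_ATGLi and 22.5 CPM in EtOH_CON (-1.19 against Cort_CON, SE 0.28, adjusted p = 0.017). Elovl6, Thrsp and Acly were likewise lower than in Cort_CON, by 1.67, 0.93 and 0.76, and did not pass against EtOH_CON. These were 5 of the 25 synthesis genes, with none higher. Sh2b2 (APS), an insulin receptor adaptor, had medians of 7.14 CPM in Cort_CON, 3.47 CPM in Cort_ATGLi and 2.65 CPM in EtOH_CON (-1.22 against Cort_CON, SE 0.26).

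Clock outputs also differed between the corticosterone groups. Per3 had medians of 5.10 CPM in Cort_CON, 8.61 CPM in Cort_ATGLi and 9.17 CPM in EtOH_CON, so that Cort_ATGLi was higher than Cort_CON (0.92, SE 0.18, adjusted p = 0.0019) and did not pass against EtOH_CON (-0.15, adjusted p = 0.55). Dbp was higher than in Cort_CON too (0.81, SE 0.17, adjusted p = 0.0074), with a median of 8.56 CPM against 4.94 CPM, while the EtOH_CON median was 40.1 CPM. Nfil3 was lower than in Cort_CON (-0.68, SE 0.13).

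Dupd1, Ighm and Mylk2 lay further from EtOH_CON in Cort_ATGLi than in Cort_CON. Dupd1 had medians of 67.3 CPM in EtOH_CON, 13.9 CPM in Cort_CON and 5.59 CPM in Cort_ATGLi (-1.82 against Cort_CON, SE 0.29, adjusted p = 0.00027), and 38.3 CPM in EtOH_ATGLi. Ighm had medians of 45.7, 8.51 and 2.76 CPM in the same order (-2.34, SE 0.42, adjusted p = 0.0011), but with limma voom its difference from Cort_CON did not pass (adjusted p = 0.075). Mylk2, the kinase of the fast myosin light chain, had medians of 373, 598 and 824 CPM (0.56, SE 0.08, adjusted p = 5.5e-05). Tmem100, an endothelial membrane protein, and Slc8a3, a sodium-calcium exchanger, were the other genes picked by size, at 0.66 (SE 0.16) and 0.56 (SE 0.13) against Cort_CON; both lost the call with only these groups in the model, as did Fasn and Sh2b2.

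Many large changes against EtOH_CON did not pass against Cort_CON. Of the 30 glucocorticoid targets, 2 passed, both lower than in Cort_CON: Cdkn1a (-0.97, SE 0.24, adjusted p = 0.026) and Rhob, a small GTPase (-1.0). Fkbp5 had medians of 273 CPM in Cort_ATGLi and 326 CPM in Cort_CON (-0.28, SE 0.13, adjusted p = 0.32). Col1a1 had 14 and 18.5 CPM (-0.41, SE 0.22, adjusted p = 0.44), with 113 CPM in EtOH_ATGLi. H2-Aa had 2.66 and 2.99 CPM (0.11, SE 0.28, adjusted p = 0.93), and Trim63 had 1159 and 924 CPM (-0.03, SE 0.21, adjusted p = 0.98). A p that misses the threshold does not show that the levels are equal.

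**Figure D5:**
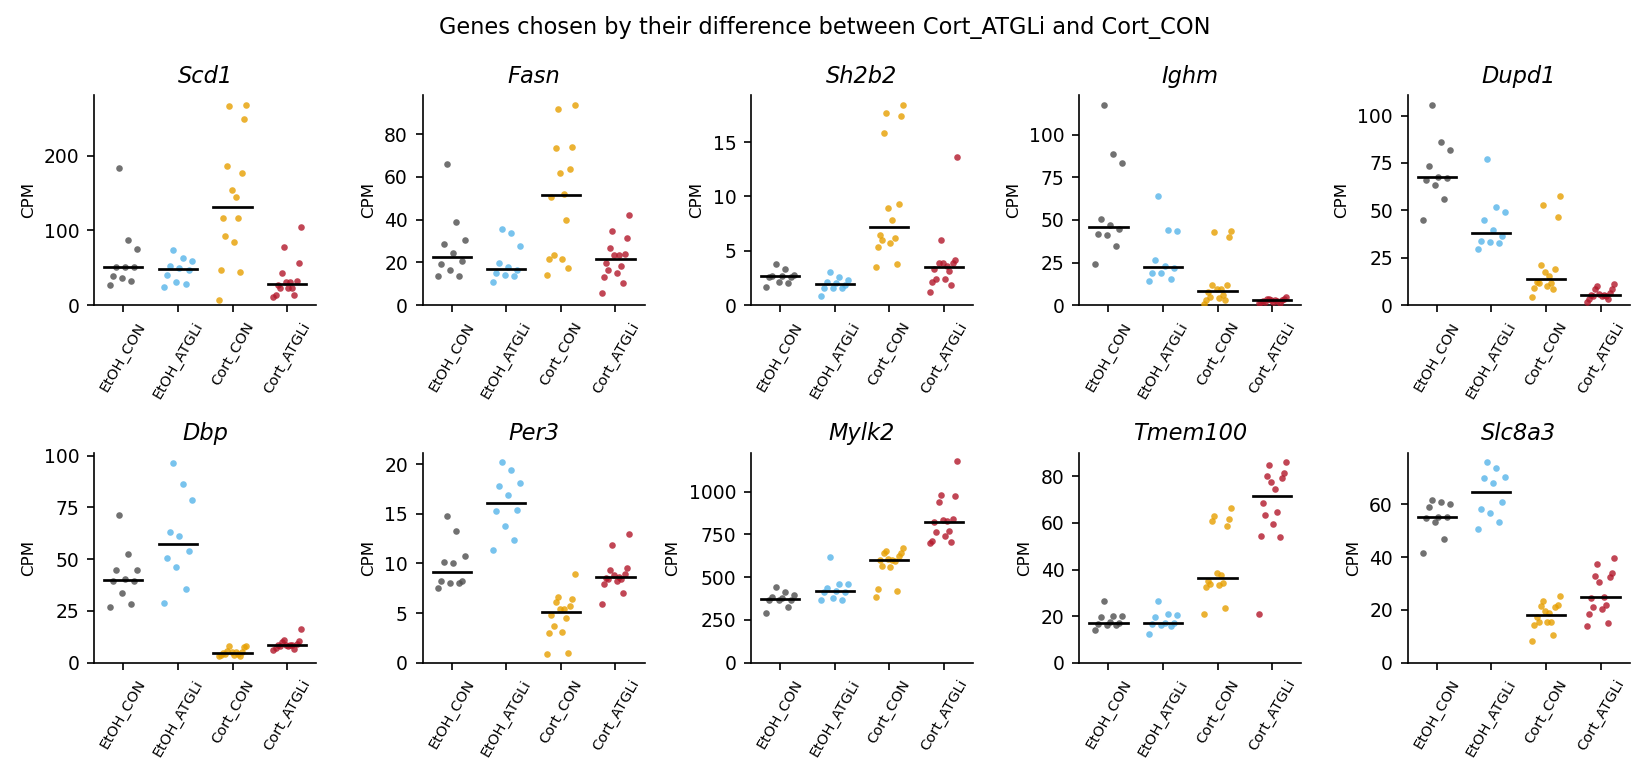
Level in CPM of the 5 genes named for the largest differences each way between Cort_ATGLi and Cort_CON, in each library of all 4 groups, with the group median as a black line. The Scd1, Fasn and Per3 medians of Cort_ATGLi lie nearer to EtOH_CON than to Cort_CON, and those of Ighm, Dupd1, Mylk2 and Tmem100 lie beyond Cort_CON.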

How the data were processed

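The deposited table holds raw counts per gene for 14125 genes in 48 libraries. The submitters' processing notes name GRCm38, R 3.6.1 and DESeq2 1.24.0. No aligner, counter, strand setting or annotation is named (not given in the sources used here), so a gene and a neighbour on the other strand cannot be told apart: of 90 genes named by rule, 12 have one, among them Glul, Plin4, Dbp, Ccnd1, Des and Csf1r; Cryab and G0s2 also do. In 47 libraries all deposited counts are even, the exception being p13 of EtOH_ATGLi. The authors' second table of normalized values was not used. A symbol was found for 14094 gene IDs. Gene positions came from GENCODE M21, and promoters from RefSeq.

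Genes were kept by filterByExpr (minimum count 10, minimum total 15), leaving 12592, and scaled by TMM. edgeR 4.0.16 (R 4.3.3) fitted all 48 libraries as 4 groups with glmQLFit, robust, and glmQLFTest. SE is the log2 fold change over the square root of F. The largest 10 rises and falls, 12 fixed genes, the 2 smallest p of each list and, against Cort_CON, the 5 largest each way were named (mean at least 5 CPM); other members are examples chosen after their values were seen. The groups, the 35 lists and the members were chosen with earlier results of these data known. Glucose and insulin were tested by permutation (100000 resamples). The fit was tested on simulated data for this comparison (12440 genes). It recovered 67.2% of 67 genes changed 1.5-fold, 86.6% of 67 changed 2-fold and 100% of 66 changed 4-fold, with 4 false calls. Far fewer genes were changed there than the 4983 called in the data, so the rates may differ for these data. Alternatives were DESeq2 1.42.0, limma 3.58.1 (voom), other filters, halved counts and each library left out. Some list members are not reported here.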

Additional observations from a re-analysis of the deposited data

Results flagged for a closer look

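In EtOH_CON (n = 10), 92 values were tested for a library far from the rest of its group, by the gap to its nearest neighbour over the group's range (Dixon's 95% rule), and 8 passed; chance gives about 1 in 20. All values are log2 CPM. Library p01 was lowest for Fstl1 at 4.31 (others from 5.28 to 5.74), Map1lc3a at 6.66 (others from 7.33 to 7.72), Pik3r1 at 2.88 (others from 3.94 to 4.77) and Tcap at 10.95 (others from 11.43 to 11.80), and highest for Itga7 at 5.50 (others from 4.60 to 4.99). Library p10 was highest for Mt2 at 6.65 (others from 4.10 to 5.07), Il6ra at 3.56 (others from 2.10 to 2.84) and Lep at 3.09 (others from 0.53 to 1.84). The Cort_ATGLi group, with 14 libraries, was not tested in this way.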

How the results depend on the processing

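No paired analysis was possible because EtOH_CON and Cort_ATGLi, and Cort_ATGLi and Cort_CON, share no replicate number. Against EtOH_CON the count of 4983 genes ran from 3711 with the stricter filter to 5133 with limma voom, from 4713 to 5006 with 1 library left out, was 4947 without p41 and p01 together, and 896 when at least a 2-fold change was asked for. Against Cort_CON the count of 201 was 78 with only the 2 groups in the fit, 269 with DESeq2, and 125 to 354 with 1 library left out; the cause was not tested. Of 86 named genes called against EtOH_CON, 84 kept their call in every setting, the exceptions being Hba-a2 and Hbb-bs. Of 10 against Cort_CON, 5 kept theirs; Fasn, Sh2b2, Slc8a3 and Tmem100 lost it with only the 2 groups and Ighm with limma voom. No named gene changed direction, and the glucose and insulin tests kept theirs. Without p41 and p01, 20 genes of fatty acid uptake and oxidation rose and 1 fell, and 4 red blood cell genes rose. No molecular identifiers are named in the labels, so counts may include duplicate reads.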
